A study of Mus musculus with 3 samples.

Results

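The genes described here make, destroy, export and sense sphingosine-1-phosphate (S1P), a signalling lipid of blood and lymph. They are the kinase genes Sphk1 and Sphk2, the lyase gene Sgpl1, the exporter gene Spns2 and the receptor genes S1pr1, S1pr2, S1pr3, S1pr4 and S1pr5. They were taken by symbol from the deposited tables, and all 9 were among the 24091 genes listed. The study measured RNA of lymphatic endothelial cells that were sorted from digested large intestine of C57BL/6 mice by CD31, podoplanin and LYVE1. It holds 1 group of 3 libraries, called replicates 1, 2 and 3, with no treatment, genotype or age in the sample labels and with capillaries and collecting vessels not separated. The deposited data carry the word Water in their names, which no label explains and which was not used as a treatment. Nothing in the labels ties the libraries to separate mice, and the SDs below may therefore hold technical spread alone.

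S1P is made inside cells when a sphingosine kinase phosphorylates sphingosine, and it is removed by phosphatases, which give back sphingosine, or by the lyase, which cleaves it irreversibly. SPNS2 carries S1P out of endothelial cells, and in mice the S1P of lymph comes largely from lymphatic endothelium. Outside the cell, S1P acts on a family of G protein-coupled receptors. S1PR1 keeps endothelial junctions closed and lets lymphocytes follow S1P out of tissues into lymph.

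The unit is TPM, by definition a level corrected for transcript length and scaled to a common total. Setting levels of different genes side by side rests on that correction, and how it was made is not given in the sources used here. Per library the tables summed to 999939, 999907 and 999896 TPM. Expressed here means a level of at least 1 TPM in each of the 3 libraries. TPM carries no depth, but low values of genes with a single transcript fell on regular steps, which put the depth at about 32.6 fragments per TPM and 1000 bases in replicate 1, 28.3 in replicate 2 and 26 in replicate 3. Markers of the labelled cell type were present. All 11 lymphatic identity genes were expressed, against 53.4% of all listed genes, and summed to 1692, 1771 and 984 TPM. Lyve1, the highest, averaged 490 ± 156 TPM (SD, n = 3), and Prox1, the lowest, 3.58 ± 1.12 TPM. The 18 epithelial genes were all expressed too. They summed to 20554.5, 24090.1 and 25905 TPM and were therefore more abundant in every library. Replicate 3 stood apart, with the lowest lymphatic sum and with 517 TPM over 10 fibroblast genes, against 205 and 142 TPM in replicates 1 and 2. In such bulk samples, fewer cells of a type and less RNA per cell cannot be told apart, and no level below is assigned to a cell type.

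Of the 9 S1P genes, 7 were expressed, against a background of 53.4% of all listed genes. Spns2 and S1pr1 were the most abundant, Sgpl1 and Sphk2 followed, and Sphk1 and the other receptors lay far below. S1pr3 passed a TPM of 1 in replicate 3 only, and S1pr5 in no library. The median of the mean levels was 29.2 TPM over the 7 expressed members, against 17.0 TPM over all expressed genes, and 3.41 TPM over all 9 members. Together the 9 genes summed to 143, 158 and 150 TPM in replicates 1, 2 and 3.

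**Figure D1:**
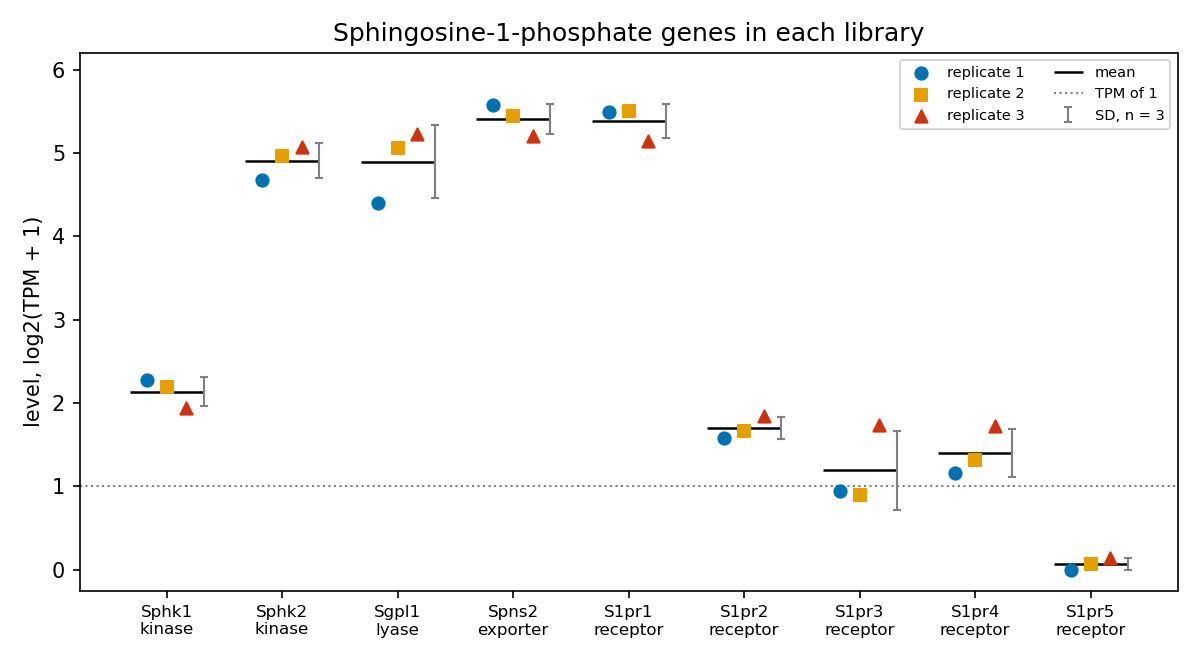
Level of each S1P gene as log2(TPM + 1) on the vertical axis, with a point for each library, a line for the mean and a bar for the SD (n = 3). The dotted line marks a TPM of 1. Spns2, S1pr1, Sgpl1 and Sphk2 averaged between 29.2 and 41.7 TPM, and the other members between 0.0482 and 3.41 TPM.

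The kinases were unequal. Sphk2 (Entrez 56632, chromosome 7, 45709463 to 45718002, minus strand, mm10) encodes the isoform found largely in the nucleus and at internal membranes, and had 24.5, 30.3 and 32.8 TPM in replicates 1, 2 and 3. Sphk1 (Entrez 20698, chromosome 11, 116530836 to 116536675, plus strand) encodes the mainly cytosolic isoform, which growth factors recruit to the plasma membrane, and had 3.85, 3.55 and 2.84 TPM. The ranges of the 2 kinases did not overlap. Sphk1 took 13.6%, 10.5% and 7.98% of the kinase TPM, the smallest share being that of replicate 3. Sphk1 minus Sphk2 was -2.77 ± 0.37 on the log2(TPM + 1) scale (SD, n = 3), a 6.82-fold difference, and it was below 0 in 3 of 3 libraries. The two-sided sign-flip permutation test, which is exact, gave p = 0.25. With 3 libraries this test can give no smaller p, so it cannot pass 0.05 for any difference.

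The level of Sphk2 carries a limit of its own. Exons of Rpl18, a ribosomal protein gene on the opposite strand, cover 373 of the 4159 exon bases annotated for Sphk2, and Rpl18 stood at 607, 548 and 540 TPM. Exons of Dbp, at 6.07 ± 0.366 TPM, cover a further 539 bases. The sources used here do not say whether counting used the strand, and without strand the reads of such neighbours cannot be told apart. Rpl18 was highest in replicate 1, the library in which Sphk2 was lowest.

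The sequences before the annotated starts of the kinase and lyase genes are shown because these 3 enzymes set S1P supply and because Sphk2 and Sgpl1 shared their order over the libraries. S1pr2, S1pr4 and S1pr5 had the same order, so it was not particular to this pair. RefSeq promoter windows (GRCm38.p6) were matched for 8 of the 9 genes, S1pr1 being the gene without an entry. The 250 bases before the start are printed in the direction of transcription, with each CG dinucleotide in capitals and, in Sphk1, also the motif TATAAA. They lie at chr11:116530850-116531099 (plus strand) for Sphk1, at chr7:45718003-45718252 (minus strand) for Sphk2 and at chr10:61147685-61147934 (minus strand) for Sgpl1.
Sphk1: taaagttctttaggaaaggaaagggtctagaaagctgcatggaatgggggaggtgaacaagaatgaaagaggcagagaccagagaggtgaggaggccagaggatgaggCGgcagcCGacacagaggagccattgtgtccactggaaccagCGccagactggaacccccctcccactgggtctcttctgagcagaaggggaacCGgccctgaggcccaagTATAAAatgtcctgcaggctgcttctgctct
Sphk2: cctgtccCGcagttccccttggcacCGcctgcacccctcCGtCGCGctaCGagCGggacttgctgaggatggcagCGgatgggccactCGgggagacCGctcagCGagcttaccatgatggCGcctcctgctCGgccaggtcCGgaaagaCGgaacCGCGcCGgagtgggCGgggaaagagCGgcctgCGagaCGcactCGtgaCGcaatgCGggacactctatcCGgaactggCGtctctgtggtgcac
Sgpl1: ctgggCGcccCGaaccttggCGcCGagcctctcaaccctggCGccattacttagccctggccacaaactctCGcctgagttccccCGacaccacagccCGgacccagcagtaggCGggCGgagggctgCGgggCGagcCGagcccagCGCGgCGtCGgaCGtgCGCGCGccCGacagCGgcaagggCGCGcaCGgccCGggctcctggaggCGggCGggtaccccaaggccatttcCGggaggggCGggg

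These windows held 4 CG dinucleotides in Sphk1, 27 in Sphk2 and 31 in Sgpl1, where the median of 32851 such windows was 6. The TATAAA motif, searched on both strands, began 31 bases before the Sphk1 start and was in neither of the other printed windows, and 12.4% of all windows held it. The window shown for Sphk1 belongs to the outermost of 5 starts listed for that gene, and the other 4 held between 12 and 19 CG dinucleotides and no TATAAA. The GC box GGGCGG, on either strand, occurred once in the printed Sphk2 window and 3 times in that of Sgpl1, and in 32.7% of all windows. Sphk2 has 2 starts listed, and the window not shown held 20 CG dinucleotides, 2 GC boxes and no TATAAA. A match describes letters of the window only. The start listed for Spns2 lies 14877 bases from the nearest start of a protein-coding transcript in GENCODE M21, and its window is not shown.

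Sgpl1 (Entrez 20397, chromosome 10, 61098642 to 61147684, minus strand) encodes the lyase, the enzyme through which sphingolipids leave the pathway for good. It had 20.2, 32.4 and 36.3 TPM in replicates 1, 2 and 3. Replicate 1 lay well below the others. The range over the libraries was 0.82 on the log2(TPM + 1) scale and 1.80-fold in TPM, where only S1pr4 of the expressed members had a wider one, 1.86-fold. Aldh3a2, whose enzyme oxidises the fatty aldehyde that the lyase releases, averaged 50.4 ± 8.21 TPM and was also lowest in replicate 1, at 40.9 TPM. Hacl1, which acts on 2-hydroxy fatty acids further down, averaged 4.36 ± 0.165 TPM.

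Spns2 (Entrez 216892, chromosome 11, 72451638 to 72489976, minus strand) had 46.5, 42.5 and 36.0 TPM in replicates 1, 2 and 3, a mean of 41.7 ± 5.32 TPM (SD, n = 3). It stood at percentile 74.1 ± 4.17 of the expressed genes. Mfsd2b, which encodes the exporter of red cells and platelets, had 0.497, 0.983 and 1.68 TPM and was lower in every library. Spns2 minus Mfsd2b was 4.41 ± 0.60 (log2), a 21.3-fold difference on the log2(TPM + 1) scale, above 0 in 3 of 3 libraries (exact sign-flip permutation test, two-sided, p = 0.25). With a pseudocount of 0.1 it was 5.31, or 39.7-fold. Of 7 genes listed for other S1P transport and carriage, 4 were expressed, against 53.4% of all listed genes. In the erythroid and platelet list, Hba-a2 averaged 290.3 ± 148 TPM and Hbb-bs, also a haemoglobin gene, 196 ± 93.4 TPM, and the platelet factor gene Pf4 31.2 ± 19.0 TPM, while Itga2b, Alas2, Ppbp and Gp9 stayed below a mean of 1 TPM. That list summed to 245, 694 and 621 TPM over the libraries, and its part in the level of Mfsd2b was not tested.

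The exporter and the lyase were not separated. Spns2 minus Sgpl1 was 1.17, 0.38 and -0.01 (log2) in replicates 1, 2 and 3, with a mean of 0.51 ± 0.60 that was smaller than its SD (exact sign-flip permutation test, two-sided, p = 0.5). Leaving out replicate 1 gave 0.18, and leaving out replicate 3 gave 0.77. In TPM, Sgpl1 over Spns2 was 0.433, 0.763 and 1.01. In contrast, the ratio of Sphk1 to Spns2 held at 0.0826, 0.0836 and 0.0790 in the same libraries. On the annotation, Mybbp1a on the opposite strand shares 131 of 4083 exon bases with Spns2 and averaged 35.5 ± 2.93 TPM.

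Among the receptors, S1pr1 accounted for most of the signal. S1pr1 (Entrez 13609, chromosome 3, 115710433 to 115715055, minus strand) encodes the Gi-coupled receptor of endothelium and lymphocytes and had 44.0, 44.5 and 34.4 TPM in replicates 1, 2 and 3. Replicate 3 was the lowest, and the mean of 41.0 ± 5.71 TPM (SD, n = 3) stood at percentile 73.7 ± 4.39 of expressed genes. S1pr1 took 91.4%, 90.7% and 82.4% of the TPM summed over the 5 receptors. Its level and that of Spns2 overlapped, with a ratio of Spns2 to S1pr1 of 1.06, 0.955 and 1.05.

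S1pr2 (Entrez 14739, chromosome 9, 20965952 to 20976793, minus strand) encodes a receptor that also couples to the G proteins of Gna12 and Gna13, and it had 1.99, 2.18 and 2.60 TPM. S1pr4 (Entrez 13611, chromosome 10, 81497745 to 81500137, minus strand), a receptor gene of leukocytes, had 1.24, 1.5 and 2.31 TPM. S1pr3 (Entrez 13610, chromosome 13, 51408618 to 51422797, plus strand), known from smooth muscle and endothelium, had 0.922, 0.854 and 2.34 TPM. All of these were highest in replicate 3, where S1pr3 was 2.74-fold its lowest value. The mean of S1pr3, 1.37 ± 0.840 TPM, rested on that library and was 0.888 TPM without it. S1pr5 (Entrez 94226, chromosome 9, 21242917 to 21248443, minus strand), a receptor gene of natural killer cells and oligodendrocytes, was listed at 0 TPM in replicate 1 and at 0.0455 and 0.0993 TPM in replicates 2 and 3.

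The depth behind these levels differed widely. By the step estimate, S1pr1 rested on 4084.5, 3609 and 2561 fragments in replicates 1, 2 and 3, and S1pr2 on 402, 384 and 420. S1pr3 rested on 128, 104 and 261 and S1pr4 on 88.6, 93.7 and 132. S1pr5 rested on 0, 3 and 6 fragments, so it was hardly detectable at this depth. These are estimates from the values, and no interval for counting error was drawn from them.

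S1pr1 exceeded each of the other receptors in 3 of 3 libraries. On the log2(TPM + 1) scale, S1pr1 minus S1pr2 was 3.68 ± 0.34, a 12.8-fold difference, and S1pr1 minus S1pr4 was 3.98 ± 0.49, a 15.7-fold difference (SD, n = 3). S1pr1 minus S1pr3 was 4.19 ± 0.68, or 18.3-fold, and S1pr1 minus S1pr5 was 5.31 ± 0.27. The pseudocount of 1 holds such differences down. With 0.1, S1pr1 minus S1pr2 was 4.12, S1pr1 minus S1pr4 4.56, S1pr1 minus S1pr3 4.93, or 30.5-fold, and S1pr1 minus S1pr5 8.16. Replicate 3 gave the smallest of the 3 values in each of these differences, for example 3.30 for S1pr1 minus S1pr2, against 3.91 and 3.84 in replicates 1 and 2. Each gave p = 0.25 in the same exact permutation test. After Benjamini-Hochberg adjustment over the 7 differences tested, p was 0.292 for every difference except Spns2 minus Sgpl1, where it was 0.5.

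**Figure D2:**
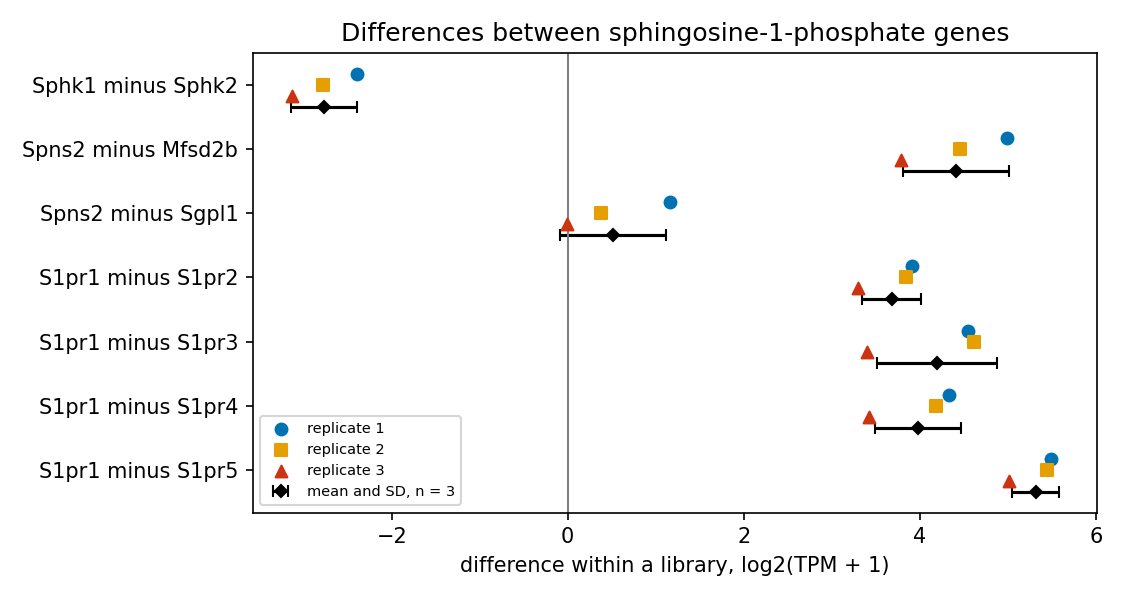
Differences between S1P genes within each library on the log2(TPM + 1) scale (horizontal axis), with a point for each library and a diamond with a bar for the mean and SD (n = 3). In 6 of the 7 differences the 3 libraries lie on the same side of 0, and Spns2 minus Sgpl1 ranges from -0.01 to 1.17.

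In the order of mean levels, 3 of the 8 steps between neighbours were separated in the sense that the ranges over the libraries did not overlap. These were Sphk2 above Sphk1, Sphk1 above S1pr2 and S1pr3 above S1pr5. Spns2, S1pr1, Sgpl1 and Sphk2 formed a run in which no neighbours were separated, since in each neighbouring pair the higher gene led in 2 of 3 libraries. S1pr2 and S1pr4 overlapped, although S1pr2 was the higher in every library, and S1pr4 and S1pr3 overlapped as well. The order was read from these values, so it was not tested.

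The receptor genes share a compact structure that the choice of genes did not use. In GENCODE M21 each has its whole coding sequence in 1 exon, with coding lengths of 1146 bases in S1pr1, 1056 in S1pr2, 1134 in S1pr3, 1158 in S1pr4 and 1200 in S1pr5. Their coding sequences matched at 56.9% (S1pr3 and S1pr5) to 66.1% (S1pr1 and S1pr3) of aligned bases. The longest exact stretch shared by a pair of receptor transcripts was 26 bases. Sphk1 and Sphk2 matched at 67.3% of 1118 aligned coding bases, with a longest shared stretch of 15 bases.

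The members differed in which library was low, and this followed 2 patterns. Sphk1, Spns2 and S1pr1 were lowest in replicate 3, which makes 3 of the 7 expressed members, against 22.9% of all expressed genes. Sphk2, Sgpl1, S1pr2 and S1pr4 were lowest in replicate 1, as were 63.2% of expressed genes, and all 4 were highest in replicate 3, as were 40.5%. Sphk1 and Spns2 were highest in replicate 1, as were 17.1%. With the libraries scaled by the median of ratios, which shifts replicate 1 by 0.14 (log2), the background became 33.7% lowest and 34.01% highest in replicate 3, while the members again numbered 3 and 4. Under that scaling S1pr2 was lowest in replicate 2 and S1pr1 highest in replicate 1, so those places depend on it. On the log2(TPM + 1) scale, none of the 7 expressed members had a range over 1 between its lowest and highest library, against 5.1% of expressed genes.

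Marker lists of the cell types that the sort could hold were set beside these patterns. The mean of 16 pan-endothelial genes, on the log2(TPM + 1) scale, deviated from its own mean over the libraries by 0.14, 0.03 and -0.17 in replicates 1, 2 and 3. The deviations of Spns2 were 0.16, 0.04 and -0.20, those of Sphk1 0.14, 0.05 and -0.19 and those of S1pr1 0.11, 0.13 and -0.24. Spns2 thus kept a nearly constant distance from the pan-endothelial mean, -0.23 ± 0.02 (log2, SD, n = 3), although its own SD was 0.18. Sphk1 lay at -3.51 ± 0.02 and S1pr1 at -0.26 ± 0.09 from the same mean. The lymphatic identity list deviated further, by 0.17, 0.23 and -0.40, and Spns2 lay at -0.66 ± 0.20 and S1pr1 at -0.69 ± 0.15 from it.

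A distance with an SD under 0.1, a limit set after the values were seen, was found against the pan-endothelial list for these 3 of 7 expressed members and for 8.42% of all expressed genes. Against the epithelial list it was found for Sphk2 (SD 0.09), S1pr2 (SD 0.06) and, just inside the limit, S1pr4 (SD 0.0997), and for 9.89% of expressed genes. For the other 6 lists no expressed member met it. S1pr3, which was not called expressed, met it against the smooth muscle and pericyte list (SD 0.08). Of all expressed genes, 1.04% met it against the lymphatic identity list, 1.14% against blood endothelium, 0.101% against fibroblasts, 0.412% against smooth muscle and pericytes, 0.327% against macrophages and dendritic cells and 0.28% against lymphocytes. These distances rest on 3 libraries, and genes of low level vary less on this scale.

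**Figure D3:**
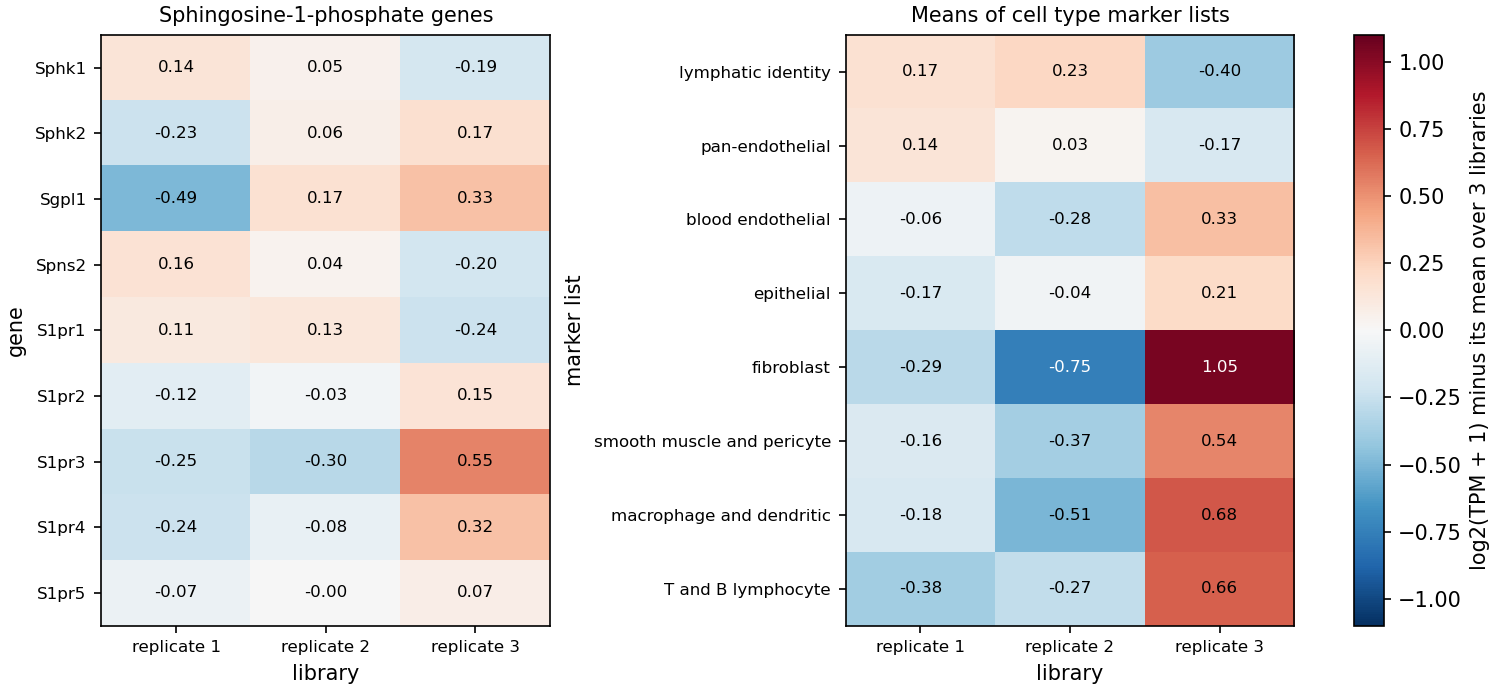
Deviation of each S1P gene (left) and of the mean of each marker list (right) from its mean over the 3 libraries, in log2(TPM + 1), with red for higher and blue for lower. Spns2, S1pr1 and Sphk1 are lowest in replicate 3, as are the lymphatic and pan-endothelial lists. The other members and lists are highest there, led by S1pr3 at 0.55 and by the fibroblast list at 1.05.

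S1pr3 and S1pr4 were highest in replicate 3, the library in which genes of several other cell types were high. S1pr2, S1pr5, Sphk2 and Sgpl1 were highest in that library too, as were 40.5% of all expressed genes. The 10 fibroblast genes, led by Dcn, were all highest in replicate 3, and 12 smooth muscle and pericyte genes, led by Tagln, summed to 247, 201 and 433 TPM. The 12 macrophage and dendritic cell genes, led by Lyz2, summed to 251, 175 and 556 TPM, and the 9 T and B lymphocyte genes found, led by Cd79a, to 8.89, 10.4 and 30.1 TPM. Flt3 and Xcr1 averaged below 1 TPM on the macrophage and dendritic list, as did Cd3e and Cd8a on the lymphocyte list. The 14 blood endothelial genes, led by Aqp1, summed to 854, 792 and 972 TPM, with Sele below 1 TPM. That list was split, with 6 genes highest and 6 lowest in replicate 3. Aqp1 was among the lowest there, at 210, 205 and 184 TPM in replicates 1, 2 and 3. The part of these cells in the levels of S1pr3 and S1pr4 was not tested. Beside S1pr5, the natural killer and innate lymphoid list held Ncr1, listed at 0 in every library, and Gzma, Gata3, Klrb1c, Klre1, Eomes and Prf1 at means below 1 TPM.

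Genes around the members were mostly expressed. Of 70 genes on 9 lists of S1P and sphingolipid metabolism and signalling, 69 were found, Cers1 being unmatched by symbol, and 61 were expressed, or 88.4% of those found, against the 53.4% of all listed genes, which holds beside each list count below. All 5 phosphatase genes that can dephosphorylate S1P were expressed, with Plpp2 at 142 ± 6.40, Plpp1 at 71.3 ± 3.60, Sgpp2 at 49.8 ± 11.8, Plpp3 at 29.4 ± 7.81 and Sgpp1 at 18.8 ± 2.37 TPM. Sgpp1 and Sgpp2 encode the S1P phosphatases of the endoplasmic reticulum, and the Plpp genes encode lipid phosphatases that act on phospholipids more widely. All 5 ceramidase genes, whose enzymes release sphingosine, were expressed too. Asah1, the acid ceramidase gene of lysosomes, led them at 83.8 ± 11.3 TPM, followed by Acer2 at 40.3 ± 4.23, Acer1 at 30.2 ± 4.84, Asah2 at 8.05 ± 1.96 and Acer3 at 6.57 ± 1.04 TPM.

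Ceramide synthesis contributed 14 expressed genes of 16 found. Degs2 (162 ± 11.3 TPM) and Degs1 (98.8 ± 26.5 TPM) encode dihydroceramide desaturases, and Sptssa (133 ± 6.90 TPM) a small subunit of serine palmitoyltransferase, the first enzyme of the pathway. Cers2, a ceramide synthase gene, averaged 64.3 ± 5.25 TPM and Ormdl2, a regulator of the first enzyme, 55.7 ± 3.87 TPM. Sptlc3 was listed at 0 in every library. All 8 genes of sphingomyelin and glucosylceramide turnover were expressed, led by Ugcg (41.7 ± 4.08 TPM), which encodes glucosylceramide synthase, and the sphingomyelinase gene Smpd3 (41.4 ± 6.85 TPM). Smpd2 and Smpd1 averaged 23.6 ± 0.839 and 20.5 ± 0.479 TPM, and Smpd4 was lowest at 9.81 ± 1.502 TPM.

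Among transporters and carriers, Abcg2, an ABC transporter that has been linked to S1P release in cultured cells, had the highest level at 62.5 ± 5.76 TPM. Abcc1 averaged 9.41 ± 2.41, Abca1 8.97 ± 0.754, Mfsd2a 1.96 ± 0.291 and Mfsd2b 1.05 ± 0.594 TPM. Apom, which encodes the S1P carrier of high-density lipoprotein, was lowest at 0.295 ± 0.154 TPM.

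Genes through which S1P receptors signal were all expressed, 11 of 11. Rac1 (313 ± 17.7 TPM), Rhoa (267 ± 5.56 TPM) and Gnai2 (249 ± 4.0 TPM) led, followed by Gna11 (125 ± 33.1 TPM) and Gnai3 (74.0 ± 11.6 TPM), and Gnai1 was lowest at 3.94 ± 0.579 TPM. Gnai2 and Gnai3 encode Gi proteins, to which S1PR1 couples, and Rac1 and Rhoa encode the GTPases of barrier closing and opening. Of the receptor regulators, 7 of 8 were expressed. Dnm2, for receptor uptake, averaged 82.3 ± 15.3 TPM, Klf2, a transcription factor that activates S1pr1 in T cells, 80.6 ± 8.29 TPM and Grk2, a receptor kinase, 59.0 ± 7.73 TPM. Wwp2 and Tln1 averaged 34.2 ± 4.36 and 28.6 ± 5.40 TPM. Cd69, whose product removes S1PR1 from the surface of activated lymphocytes, averaged 0.465 ± 0.153 TPM.

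**Figure D4:**
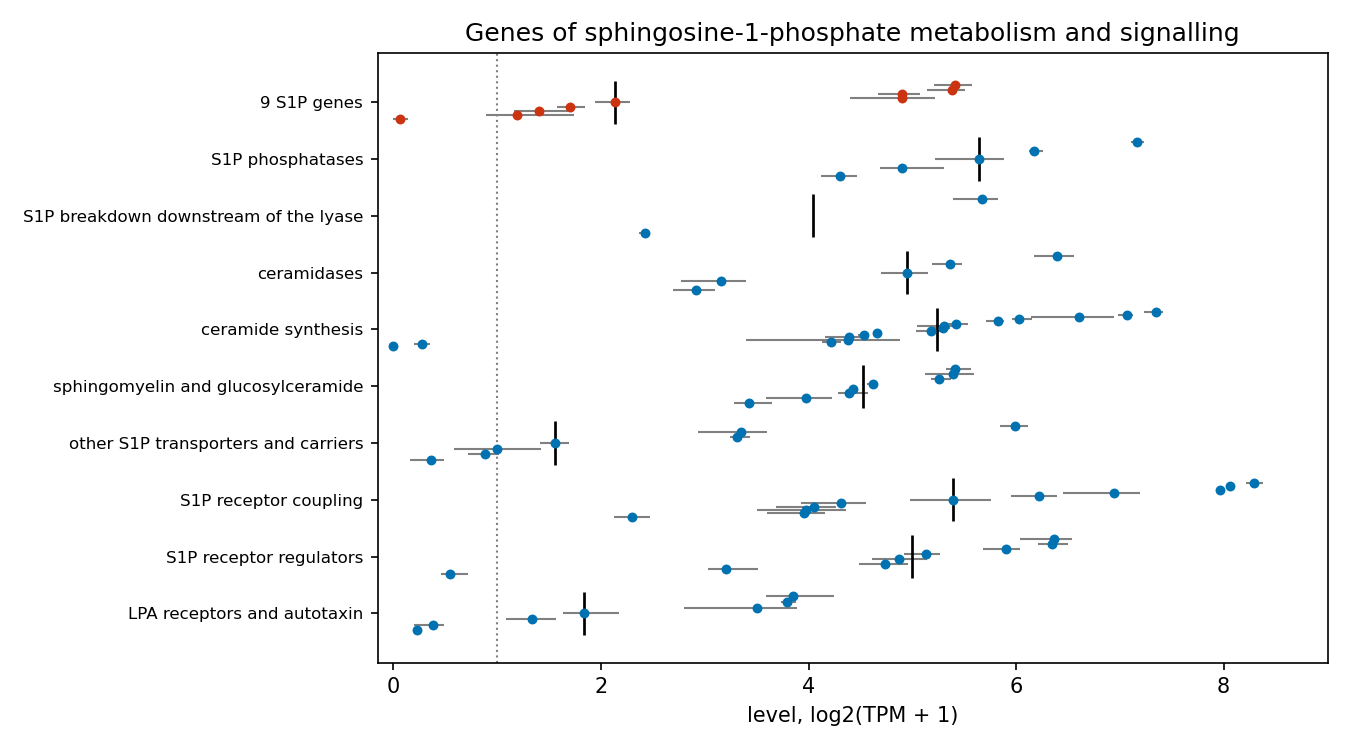
Mean level of each gene in log2(TPM + 1) on the horizontal axis, by list, with grey lines from the lowest to the highest library and a black mark for the median of each list. The dotted line marks a TPM of 1. Sptlc3 lies at 0, and Rac1 has the highest level of the genes plotted, at 313 TPM.

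Among the receptors of lysophosphatidic acid, the lipid most closely related to S1P in signalling, no single gene stood far above the others as S1pr1 did. Lpar1 averaged 13.7 ± 3.76, Lpar6 12.8 ± 0.797 and Lpar5 10.9 ± 4.35 TPM, with overlapping ranges between neighbours. Enpp2, which encodes the enzyme that makes lysophosphatidic acid, averaged 2.63 ± 0.770 TPM and Lpar2 1.55 ± 0.422 TPM. The highest value of Lpar2, 1.96 TPM in replicate 3, lay below the lowest of Lpar5, 5.96 TPM in replicate 1. Lpar4 was lowest at 0.171 ± 0.0264 TPM. S1pr1 was higher than each of these genes in every library.

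The expressed genes with values closest to those of Spns2 over the 3 libraries were Paf1, Dock6, Tgfb1, Mrto4 and Cks1b, at root mean square differences of 0.028 to 0.055 on the log2(TPM + 1) scale. Those closest to S1pr1 were Fam189a2, Cks1b, Pdlim3, Mrto4 and Casp4, at 0.015 to 0.052. Spns2 and S1pr1 lay 0.069 apart by this measure.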

How the data were processed

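RNA of 3 sorted samples was sequenced by the submitters. The deposited tables give TPM per gene, a unit named in the file headers, with 1 column per library and 24091 genes by Entrez ID and symbol. The submitters' processing notes name mm10, Cell Ranger 6.0.1 and HTSeq with no role. How TPM was computed, the annotation and the strand setting are not given in the sources used here. Coordinates came from RefSeq on GRCm38.p6 (mm10), to which 24045 IDs could be matched. Exons and coding sequences came from GENCODE M21.

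From the deposited TPM values, log2(TPM + 1) was computed. The 7 differences were taken within libraries and tested by exact two-sided sign-flip permutation with Benjamini-Hochberg adjustment. The series has 1 group, so conditions were not compared. Fragments were estimated from steps of TPM times effective length below 400 in transcripts of over 1000 bases, with phase scores of 0.524, 0.487 and 0.548, against 0.158, 0.140 and 0.130 with shuffled lengths. The search used 15144 genes with a single curated RefSeq transcript, and for genes with several the longest was used. Steps and calls were tested on simulated data. Coding sequences were aligned globally.

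Named genes were all 9 members, the 5 highest genes and the lowest of each pathway list, the highest of each marker list and its genes at a mean below 1 TPM, and the 5 genes closest to Spns2 and to S1pr1. The overlapping genes Rpl18, Dbp and Mybbp1a and the genes Prox1, Cers6, Hbb-bs and Pf4 were added after their values were seen. Some genes that the rule names are not reported here. Members and lists were chosen with earlier results of these data known. Hba-a1, Hbb-bt and Trac were not matched by symbol. Alternatives were 2 other scalings, a pseudocount of 0.1, other filters and leaving out each replicate. Software was scipy 1.17.1, numpy 2.4.6, Biopython 1.88, matplotlib 3.10.9 and pandas 2.3.3 under Python 3.11.15.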

Additional observations from a re-analysis of the deposited data

How the results depend on the processing

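Only Spns2 minus Sgpl1 could have changed direction under the alternatives run, and it did not. Each other difference had the same sign in every library, and none of these alternatives can reverse such a sign. No difference passed 0.05, in a test that cannot reach it. With a pseudocount of 0.1, Spns2 minus Mfsd2b and S1pr1 minus each other receptor grew by more than their SD, as given above. Levels stayed within 1 SD and counts within 1.5 times, apart from 7 values that moved further. For levels, leaving out a replicate cannot shift the mean of 3 values by 1 SD, so that check could not fail. TPM rescaled without ribosomal protein genes and Mir6236 raised mean levels beyond 1 SD, to 55.5 TPM for Spns2, 54.6 for S1pr1, 39.2 for Sgpl1, 38.7 for Sphk2, 4.55 for Sphk1 and 2.997 for S1pr2, since this scaling multiplies libraries by 1.37, 1.31 and 1.31. A filter of 5 TPM left 4 expressed members. Leaving out each replicate gave -2.96 to -2.59 (log2) for Sphk1 minus Sphk2, 3.57 to 3.87 for S1pr1 minus S1pr2 and 0.18 to 0.77 for Spns2 minus Sgpl1, and 0.0227 to 0.0724 TPM for S1pr5. The p of the permutation test says nothing about stability. No paired analysis between groups was possible because the series has 1 group, and the differences between genes are within libraries. Depth limits S1pr5, which was estimated at 0 to 6 fragments.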

Other observations

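Of the 61 expressed genes around the S1P members, 46 were lowest in replicate 1, against 63.2% of all expressed genes. Cers6 and Lpar5 were the 2 with a range over 1 between libraries (log2), against a background of 5.1%, and were named for this after their values were seen. Cers6, a ceramide synthase gene, had 9.54, 28.5 and 27.9 TPM in replicates 1, 2 and 3. Lpar5, a receptor gene for lysophosphatidic acid, had 5.96, 13.9 and 13.03 TPM. Both were lowest in replicate 1, the library in which Sgpl1 was lowest too. Car1, an epithelial marker gene, had 2875 TPM in replicate 1 and 5707 and 5629 TPM in replicates 2 and 3, and its relation to these genes was not tested.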
